A study of Mus musculus with 12 samples.

Results

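The core of the spliceosome is described here by 37 genes, all rows of a count table of 23163 gene symbols whose symbol begins with Snrp, Sf3a, Sf3b, U2af or Prpf, pseudogenes left out. Tissue RNA came from C57Bl/6 male mice aged 8 to 12 weeks that were kept at 4 °C (cold) or at 30 °C (thermoneutrality, where basal metabolism alone keeps a mouse warm), in either case for 72 hours. The tissues sampled were the brown adipose depot (BAT) and the white adipose depot under the skin (sWAT), each at either temperature, which gives 4 groups of 3 libraries each. The study used 20 mice, 10 at each temperature, and the labels do not say whether a library is an animal or a pool, so p-values measure the spread between these libraries, which may be technical. Library 1 of cold BAT and library 2 of cold sWAT are named as merged in the table. The libraries were made from 1000 ng of total RNA and read as 100-nucleotide pairs.

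The spliceosome removes introns from precursor mRNA. It assembles on each intron from small nuclear ribonucleoproteins (snRNPs), particles of a small nuclear RNA with its proteins: U1 binds the 5′ splice site, U2 binds the branch point, and the U4/U6.U5 tri-snRNP then joins and is rearranged into the catalytic core. Every tissue needs this machinery, and adipose tissue exposed to cold changes both which genes it transcribes and which isoforms it makes. The genes fall into 8 roles. The Sm ring proteins (8 genes) form the ring that holds U1, U2, U4 and U5 RNA. Snrpa and Snrpc belong to U1, and Snrpa1 and Snrpb2 to U2. The SF3a complex (3 genes) and the SF3b complex (6 genes) anchor U2 at the branch point, and the U2AF proteins (3 genes) mark the 3′ splice site before U2 arrives. A further 8 PRPF genes encode proteins of the tri-snRNP and of the B complex that it forms with U1 and U2 on the intron. The other PRPF genes include the ubiquitin ligase Prpf19, which acts in catalytic activation, the second-step factor Prpf18 and the U1-associated Prpf39 and Prpf40b.

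Total counts ranged from 27117934 to 56243016 per library, and the 37 genes took from 0.0897% (cold BAT library 3) to 0.230% of them. Levels are given as CPM, counts scaled to equal library size by TMM over all 12 libraries. Ucp1, the uncoupling protein of brown fat, followed the labels, with 20030 to 22940 CPM in cold BAT, 1397 to 2550 in thermoneutral BAT, 3244 to 13250 in cold sWAT and 41.4 to 380 in thermoneutral sWAT. Hoxc10, a posterior positional gene, had 0 counts in every BAT library and 6.30 to 21.8 CPM in sWAT. Zic1, a marker of classical brown fat, had 9.32 and 6.75 CPM in cold sWAT libraries 2 and 3, against 0.0937 CPM in library 1 and at most 0.0981 in thermoneutral sWAT. Thermoneutral sWAT stood apart in composition. Mitochondrially encoded genes took 0.181% to 0.307% of its counts, against 17.6% to 53.8% in the other 9 libraries. Ribosomal protein genes took 7.18% to 8.14% against 0.338% to 1.85%. The log2 level of a gene rose by 0.989 to 1.58 per 10 points of GC content there, against -0.637 to 0.402 elsewhere. Fits with a GC offset per library are given beside the results.

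Another division runs within groups. In cold BAT library 3, 8 of the 37 genes lay under 0.5 times the mean of the other libraries of the group, and in cold sWAT library 1, 6 did. They shared 5 genes, which are 62.5% of the former and 83.3% of the latter: Sf3b5, Snrpb, Snrpc, Snrpd2 and Snrpf. In both libraries Prpf39 lay above 2 times the mean of the others. Sf3b5, a small SF3b subunit, showed the widest gap: it had 62.1, 63.2 and 1.14 CPM in cold BAT (1395, 2095 and 34 counts) and 4.23, 52.0 and 45.4 CPM in cold sWAT. Those libraries had the lowest slope of level on GC content in their groups, -0.637 in cold BAT library 3 and -0.357 in cold sWAT library 1. They also had the highest slope of level on transcript length in their groups, 0.898 and 0.705 log2 units per doubling of length. Thermoneutral BAT library 3 was the counterpart at 30 °C, with a GC slope of -0.281 and a length slope of 0.679. Its Prpf38b, a B-complex protein, reached 412 CPM against 80.0 and 71.7 in libraries 1 and 2, and its Prpf4b, a kinase of the B complex, reached 177 CPM against 60.1 and 73.2. The part of GC content or of transcript length in these gaps was not tested. The heat map of the genes shows these columns.

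**Figure D1:**
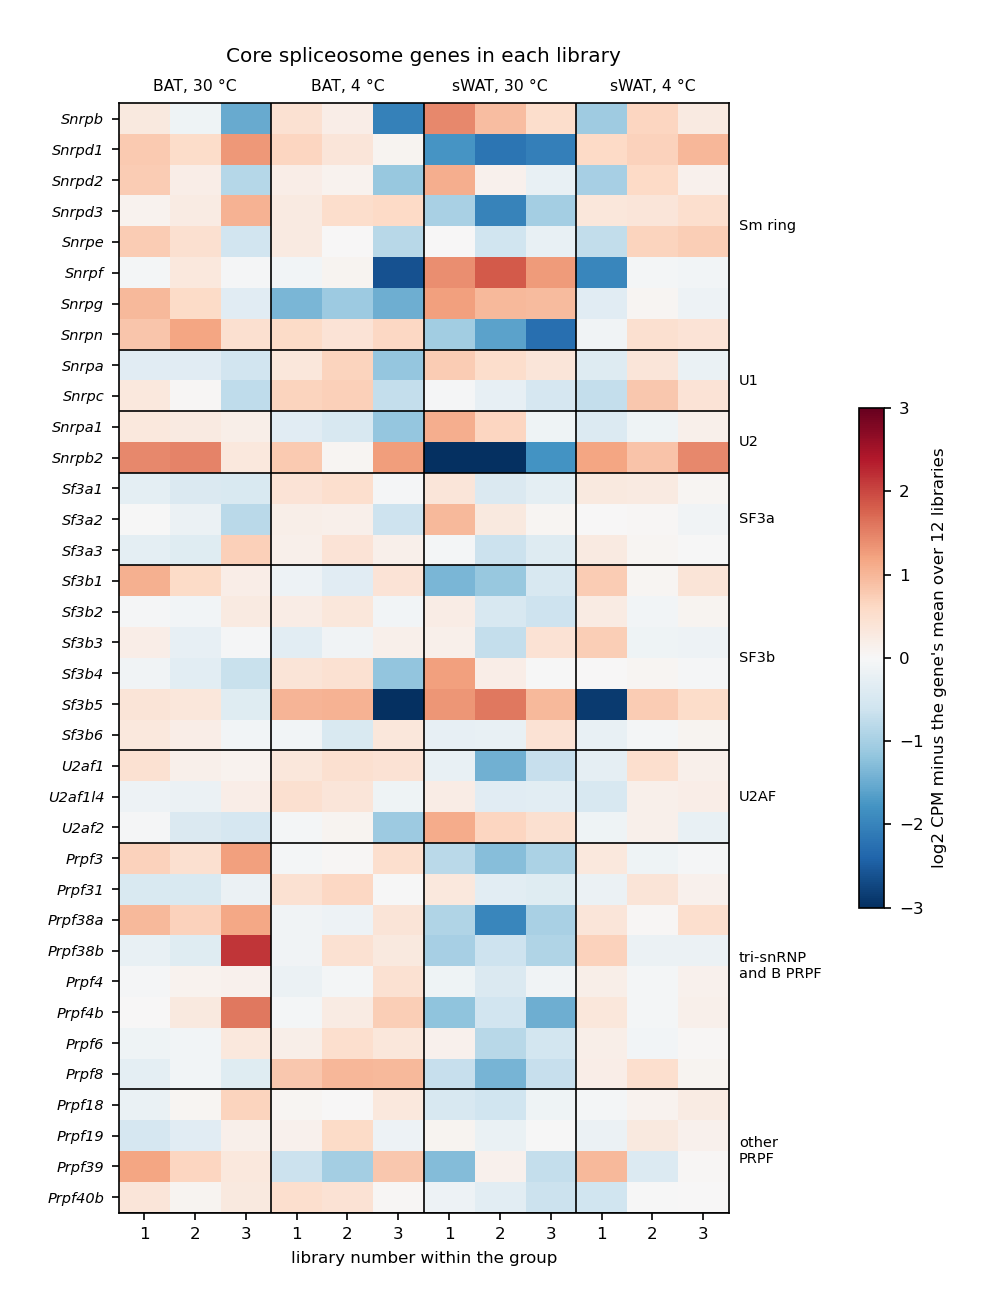
Level of 36 of the genes (rows, by role) in each of the 12 libraries (columns, by group), as log2 CPM minus the mean of that gene over the libraries. Red is above and blue below the mean, and the colour scale ends at 3 in either direction. In thermoneutral sWAT Snrpd1, Snrpd3, Snrpn and Snrpb2 are blue where Snrpf and Snrpg are red, and Sf3b5 is blue in cold BAT library 3 and cold sWAT library 1.

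Levels of different genes were compared per kilobase of transcript. In cold BAT the order ran from Prpf8, the scaffold of the catalytic core, at 49.0 ± 3.18 CPM per kilobase (SD, n = 3), Sf3b2 at 46.6 ± 6.74 and Prpf19 at 45.4 ± 12.0 down to Prpf4 at 3.03 ± 0.733 and Snrpg at 1.72 ± 0.247. The spreads of the top 3 overlapped. In thermoneutral BAT Prpf8 stood at 21.8 ± 2.36, in place 14 of 37. In thermoneutral sWAT the order had a different head, with Snrpf at 121 ± 25.97, Snrpb at 82.9 ± 26.2 and U2af2 at 62.3 ± 15.1. Its foot was Snrpb2, at 0.436 ± 0.322 CPM per kilobase, while the same gene had 4.75 to 6.26 in the other groups. Of the Sm ring genes, Snrpf held places 1 to 10 of the order over the 4 groups and Snrpg places 23 to 37.

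**Figure D2:**
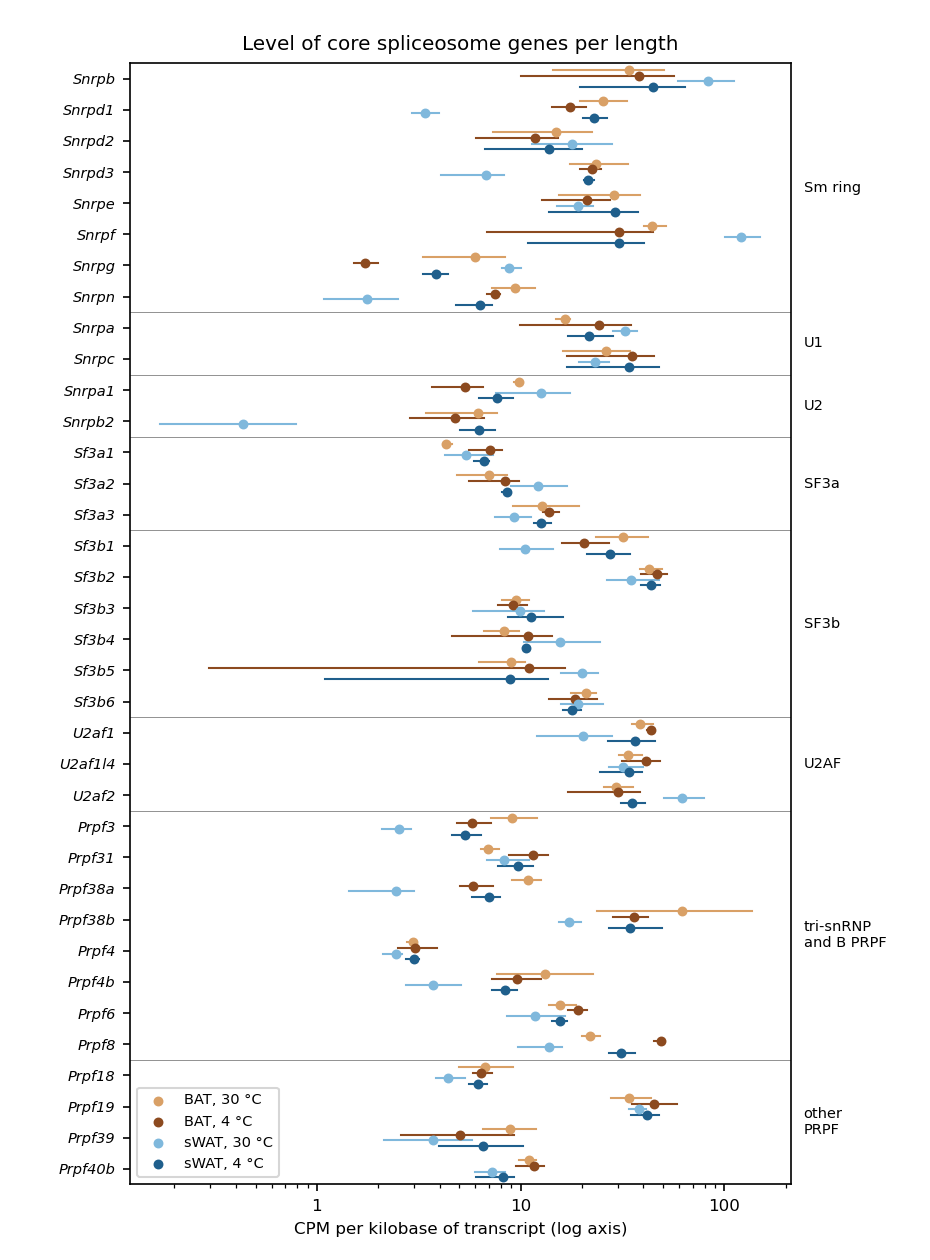
CPM per kilobase of transcript (log axis) of 36 of the genes in the 4 groups; points are means of 3 libraries and lines run from the lowest to the highest library. Thermoneutral sWAT (light blue) lies apart from the other groups for Snrpd1, Snrpd3, Snrpn, Snrpb2, Prpf3 and Prpf38a on the low side and for Snrpf on the high side.

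In BAT, with all its libraries in the fit, cold left most of the core spliceosome within the spread of the libraries. Prpf8 rose and the Sm ring gene Snrpg fell, and the other 35 genes did not pass the test (edgeR's quasi-likelihood test, Benjamini-Hochberg adjusted p under 0.05 over 14612 genes). Among all genes tested 6.82% were called higher and 5.34% lower. In this fit 1 of 37 in each direction, 5.41% together against a background of 12.2%, is below the share for the transcriptome. That standing depended on which libraries were fitted, as given below. The median log2 fold change of the 37 genes was 0.08, that of all genes -0.04. In tissue RNA, fewer cells of a type and less RNA per cell cannot be told apart, here and in every comparison below.

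Prpf8 (mm10 chromosome 11, 75486816 to 75509449, plus strand) had 337, 381 and 375 CPM in cold BAT and 156, 182 and 149 CPM in thermoneutral BAT. Every cold library lay above every thermoneutral one. The log2 fold change was 1.21 ± 0.25 (SE; adjusted p = 0.0193). Snrpg (chromosome 6, 86371304 to 86379328, plus strand), which encodes the Sm protein G, had 1.74, 2.11 and 1.61 CPM in the cold and 8.81, 6.62 and 3.51 CPM at 30 °C. The groups did not overlap, and the cold libraries hold 39, 70 and 48 counts of it. It fell by 1.74 ± 0.39 on the log2 scale (adjusted p = 0.0248). Both calls were lost without single libraries: leaving out cold library 1 or 2, or thermoneutral library 1 or 2, raised the adjusted p of Prpf8 to between 0.0649 and 0.101 and that of Snrpg to between 0.0826 and 0.100, at log2 fold changes of at least 1.15 and at most -1.46.

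The next smallest p-values in BAT belonged to genes that did not pass. The log2 fold change was -0.85 ± 0.28 for Prpf38a (edgeR, adjusted p = 0.0825) and 0.76 ± 0.25 for Sf3a1, a subunit of SF3a (0.0806). Prpf31, which ties U4/U6 to U5, had 0.78 ± 0.26 (0.0869). With a replicate block Prpf38a (0.0344) and Sf3a1 (0.0495) passed. For these genes and for Snrpa1 the libraries of the groups did not overlap either. In all, 6 of 37 genes had groups without overlap, 16.2% against 35.6% of all genes tested. The genes followed as representatives of each particle were not called: Snrpb had 0.20 ± 0.63, Snrpn -0.29 ± 0.27, Sf3b1 -0.60 ± 0.33, U2af1 0.22 ± 0.23, U2af2 0.08 ± 0.34 and Prpf19 0.46 ± 0.30. Snrpb had 65.5, 55.3 and 11.6 CPM in the cold libraries, the last of them far below the others. Without both BAT libraries numbered 3, 11 genes were called higher and 7 lower (22.4% and 22.3% of all genes). The share of the 37 genes called in either direction was then no longer below that of all genes. Those then called higher included Prpf31 (1.04 ± 0.17), Sf3a1 (0.88 ± 0.17) and Snrpa (0.89 ± 0.18), and those called lower Prpf39 (-1.72 ± 0.22), Sf3b1 (-1.04 ± 0.21) and Prpf38a (-0.94 ± 0.20).

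**Figure D3:**
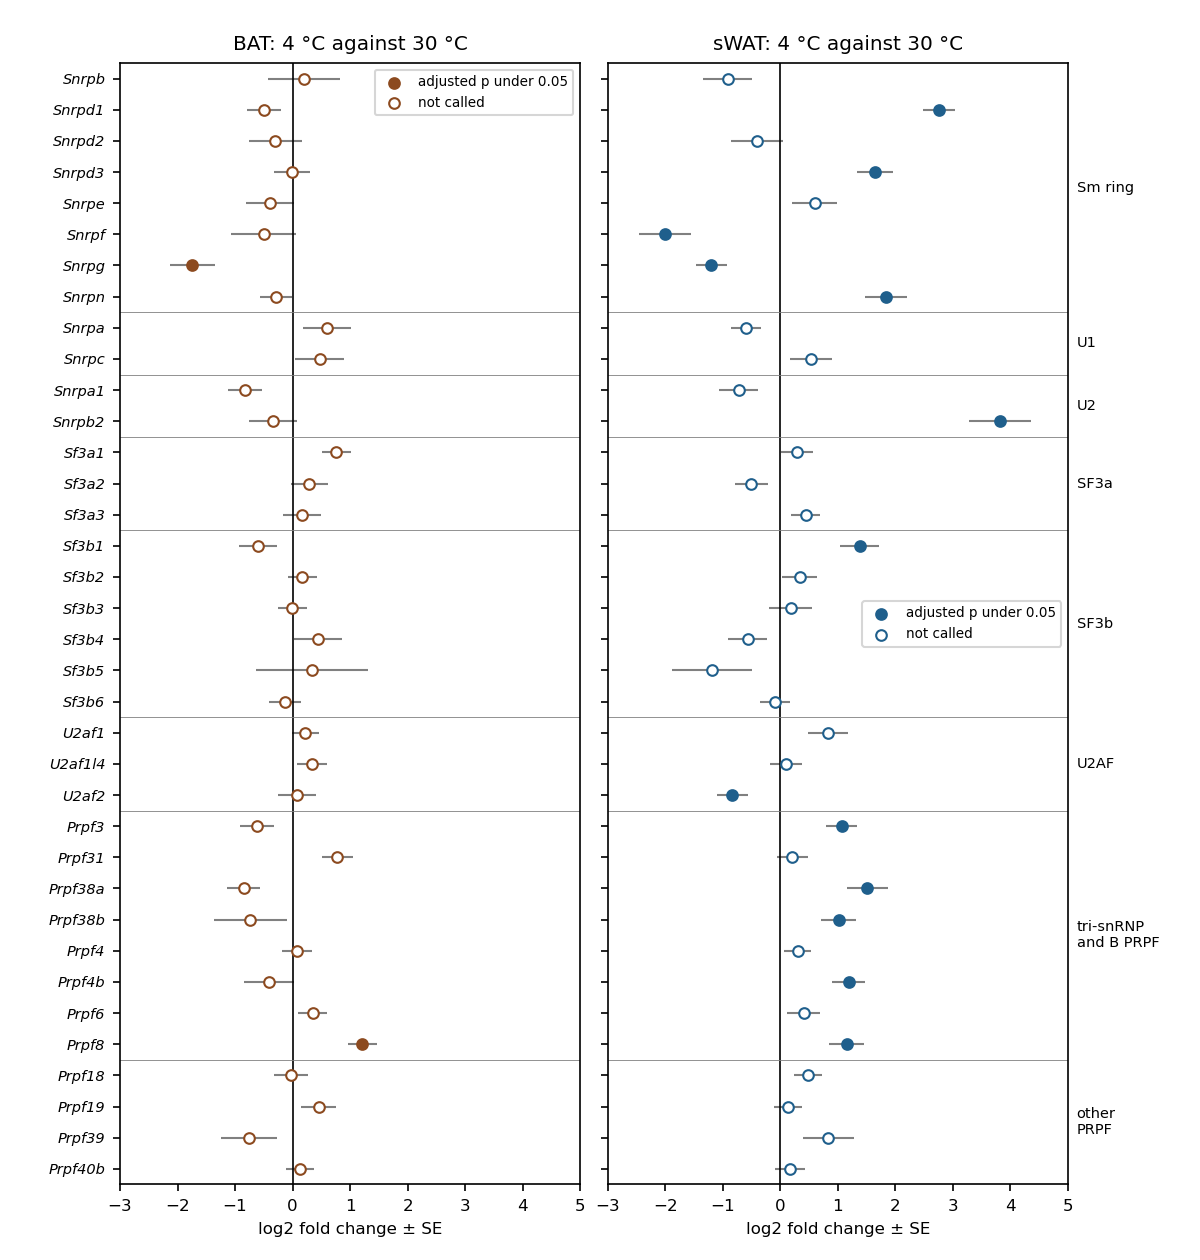
Log2 fold change of cold against 30 °C with its SE for 36 of the genes in BAT (left) and sWAT (right), by role; filled points passed an adjusted p of 0.05. In BAT only Prpf8 and Snrpg are filled, and in sWAT 10 genes are filled to the right of 0 and 3 to the left.

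In sWAT the same exposure came with changes in 14 of the 37 genes: 11 rose, led by Snrpb2, Snrpd1 and Snrpn, and Snrpf, Snrpg and U2af2 fell. The background was large in this depot, 25.1% of 15731 genes higher and 24.1% lower, so the share of spliceosome genes called, 37.8%, lies below the 49.2% of all genes. The median log2 fold change was 0.34, against 0.00 for all genes. The libraries of the groups did not overlap for 20 genes, 54.1% against 60.6% of all genes tested. Cell type markers moved with the same contrast. Of 10 brown adipocyte markers tested 9 were called higher and none lower (median log2 fold change 3.04), and the summed level of the list was 4689 to 17570 CPM in cold against 204 to 863 in thermoneutral sWAT. Endothelial markers, 4 of 7 called higher, summed to 436 to 565 against 217 to 363. The summed level of 21 skeletal muscle genes was 11080 to 28280 CPM in cold and 156.9 to 6206 in thermoneutral sWAT, with 17 called higher, and that of 10 macrophage markers 295 to 449.7 against 986 to 1552, with 5 called lower and 1 higher. For 16 lymphocyte markers it was 414.5 to 1379 against 1169 to 1752, for 8 fibroblast and progenitor markers 1083 to 1722 against 3460 to 5810, and for 8 proliferation markers 61.3 to 107 against 116 to 158.5. The lowest skeletal muscle sum, 156.9 CPM, was that of thermoneutral sWAT library 3, against 2461 and 6206 in libraries 1 and 2. The part of these markers in the results below was not tested. With library 1 as the only cold sWAT library, in which Zic1 was within its thermoneutral range, Prpf8 (1.13 ± 0.40, 0.0523) and U2af2 (-0.87 ± 0.42, 0.136) lost their calls. Prpf39 (1.51 ± 0.48, 0.0382), Sf3b5 and Snrpb (-2.05 ± 0.47, 0.00979) gained one, and Snrpf came to -3.44 ± 0.46 (0.000905). That library is assumed to vary like the other group.

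The Sm ring moved in opposite directions by gene. Snrpd1 (chromosome 18) had 17.3, 18.6 and 22.8 CPM in cold and 3.39, 2.50 and 2.80 CPM in thermoneutral sWAT. The groups were separated by a wide gap and the spread within each was small. Its log2 fold change was 2.75 ± 0.28 (edgeR, adjusted p = 0.000308). Snrpd3 (chromosome 10) had 62.2, 63.0 and 69.9 CPM against 25.2, 12.3 and 24.4, a log2 fold change of 1.65 ± 0.31 (0.00314). Snrpd1 and Snrpd3 encode the Sm proteins D1 and D3, which enter the ring in different subcomplexes. Snrpn (chromosome 7), an imprinted relative of Snrpb best known from neurons, had 10.0, 15.1 and 14.3 CPM against 5.22, 3.53 and 2.24, with 1.83 ± 0.36 (0.00368).

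Snrpf and Snrpg, whose proteins F and G form a subcomplex of the ring with protein E, went the other way. Snrpf (chromosome 10) had 9.31, 34.7 and 34.1 CPM in cold and 95.6, 129 and 87.2 CPM in thermoneutral sWAT. Even the highest cold library lay far below the lowest thermoneutral one. It fell by 2.01 ± 0.46 (adjusted p = 0.00719). Snrpg had 3.50, 4.66 and 3.99 CPM against 10.6, 8.73 and 8.58, and fell by 1.20 ± 0.27 (0.00626). Snrpe, the remaining gene of that subcomplex, was not called, with 6.89, 18.2 and 18.9 CPM against 11.4, 7.60 and 9.87. Snrpb had 22.7, 74.4 and 57.5 CPM against 129, 91.4 and 68.6, with -0.91 ± 0.42 (0.103), and Snrpd2 was not called either. Of the 8 Sm genes 3 were called higher and 2 lower, and their median log2 fold change was 0.10.

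Of the genes of U2, Snrpb2 and Snrpa1 encode the B″ and A′ proteins, which bind the same stem-loop of U2 RNA as a complex. Snrpb2 (chromosome 2, 143063039 to 143072853, plus strand) had 12.9, 10.4 and 15.5 CPM in cold sWAT. In thermoneutral sWAT it had 0.351, 0.711 and 1.64 CPM, which rests on 15, 29 and 86 counts. Its log2 fold change of 3.82 ± 0.54 (edgeR, adjusted p = 0.000918) is the largest among the 37 genes, and it is 4.61 without thermoneutral library 3. Snrpa1 (chromosome 7) had 7.77, 9.38 and 11.4 CPM in the cold and 21.7, 16.0 and 9.43 CPM at 30 °C. Those groups overlapped, and its log2 fold change of -0.73 ± 0.34 did not pass (0.105). Snrpa1 and Snrpb2 therefore stood at 12.6 and 0.436 CPM per kilobase in thermoneutral sWAT, and at 7.63 and 6.26 in cold sWAT. In the U1 particle, Snrpa (-0.60 ± 0.26) and Snrpc (0.53 ± 0.36) were not called.

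Upstream sequence is shown for Snrpb2 and Snrpa1, the partners with unlike values, and for Prpf8, the gene higher in the cold in both depots. The stretches come from RefSeq (GRCm38.p6, the mm10 assembly), begin 250 bases before the RefSeq start and stop before the first annotated exon; all 3 genes lie on the plus strand. The stretches of Snrpb2 and Prpf8 end before the GENCODE start of the gene. That of Snrpa1 lies inside the GENCODE gene (chromosome 7, 66059003 to 66074587), outside its exons, since a noncoding transcript there begins farther upstream than the RefSeq start. They are Snrpb2 chr2:143062819-143063038, Snrpa1 chr7:66060086-66060298 and Prpf8 chr11:75486527-75486776. Capitals mark matches, on either strand, to CCGGAAG (ETS family), GGGCGG (SP1), CCAAT (NFY) and TATAAA (the core promoter element of that name). They also mark an exact palindromic form of the NRF1 motif, given by name. Variants of the NRF1 motif were not searched and stay in lower case.
Snrpb2: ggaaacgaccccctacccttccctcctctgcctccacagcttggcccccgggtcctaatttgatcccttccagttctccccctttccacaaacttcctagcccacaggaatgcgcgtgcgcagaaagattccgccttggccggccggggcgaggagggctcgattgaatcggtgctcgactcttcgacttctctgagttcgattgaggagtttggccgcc
Snrpa1: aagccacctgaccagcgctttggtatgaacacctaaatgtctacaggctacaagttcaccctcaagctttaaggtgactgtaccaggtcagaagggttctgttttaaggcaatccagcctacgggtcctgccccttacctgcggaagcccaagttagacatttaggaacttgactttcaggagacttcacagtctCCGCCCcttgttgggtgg
Prpf8: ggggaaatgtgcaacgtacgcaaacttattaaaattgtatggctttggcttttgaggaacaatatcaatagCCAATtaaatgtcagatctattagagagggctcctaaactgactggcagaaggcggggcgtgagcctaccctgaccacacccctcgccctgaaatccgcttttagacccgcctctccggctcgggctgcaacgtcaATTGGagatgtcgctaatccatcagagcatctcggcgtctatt
The Prpf8 stretch holds 2 CCAAT matches, at 179 and 43 bases before the start, and Snrpa1 has 1 GGGCGG match at 55 bases. In Snrpb2 the matches of the 250 bases, 2 to CCGGAAG and 1 to GGGCGG, lie past the end of the stretch shown. Over the 30 of 37 genes with a RefSeq entry, 12 had CCGGAAG in the 250 bases (40.0%), against 7.83% of 27025 genes. GGGCGG was found in 53.3% against 35.4%, CCAAT in 43.3% against 37.5% and TATAAA in 10.0% against 14.3%. The exact form of the NRF1 motif was found in 0 of 30 against 0.877%, and its variants were not counted. A match describes letters in this window and no binding was measured.

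In the complexes that place U2 on the branch point, few genes changed in sWAT. Sf3b1, which clasps the branch point helix, stood at 214, 131 and 163 CPM in cold sWAT against 48.8, 57.4 and 89.8 in thermoneutral sWAT, and every cold library was higher. The log2 fold change was 1.38 ± 0.33 (edgeR, adjusted p = 0.00910). None of the other 5 SF3b genes and none of the 3 SF3a genes was called, their log2 fold changes running from -1.19 to 0.44. The lower end was Sf3b5 (-1.19 ± 0.69, 0.182), which without cold library 1 reached -0.66 ± 0.25 (0.0460) and with library 1 as the only cold library -4.14 ± 0.48 (0.000472). U2af2, the U2AF subunit that reads the polypyrimidine tract, had 69.5, 84.99 and 65.2 CPM against 166, 118 and 106. It fell by 0.83 ± 0.27 (0.0300), and that call was lost without single libraries: the adjusted p was 0.0535 to 0.127 without any of 4 libraries, cold 2 or 3 and thermoneutral 1 or 2. It was 0.0684 with a replicate block. Its partner U2af1, which reads the AG of the splice site, had 28.1, 48.0 and 37.7 CPM against 29.4, 12.6 and 21.2 and was not called (0.84 ± 0.35, 0.0744).

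Of the 8 PRPF genes of the tri-snRNP and B complex 5 were called higher and none lower in sWAT, against 25.1% higher and 24.1% lower of all genes, with a median log2 fold change of 1.04. With the GC offset given below, the calls of Prpf3 and Prpf8 stood and those of Prpf38a, Prpf38b and Prpf4b did not. Prpf8 had 221, 270.4 and 202 CPM in the cold and 118, 72.5 and 118 CPM at 30 °C, without overlap, and a log2 fold change of 1.16 ± 0.30 (edgeR, adjusted p = 0.0128). Without thermoneutral library 2 this was 0.94 ± 0.32 (0.0546). Prpf38a, a B-complex protein, had 10.98, 8.72 and 12.0 CPM against 4.54, 2.18 and 4.34, with 1.51 ± 0.35 (0.00788). Prpf3, a U4/U6 protein, had 18.7, 13.5 and 14.6 CPM against 8.47, 6.15 and 7.70, with 1.07 ± 0.27 (0.0114). The groups of both genes were separate in every library. Prpf4b, which phosphorylates tri-snRNP proteins, rose by 1.19 ± 0.28 (0.00871) and Prpf38b by 1.016 ± 0.31 (0.0229). Without thermoneutral library 1, 2 or 3 the adjusted p of Prpf38b was 0.0512 to 0.0681, with a replicate block it was 0.0616, and without cold library 1 its log2 fold change was 0.66. Among the other PRPF genes Prpf19 was not called (0.13 ± 0.24).

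**Figure D4:**
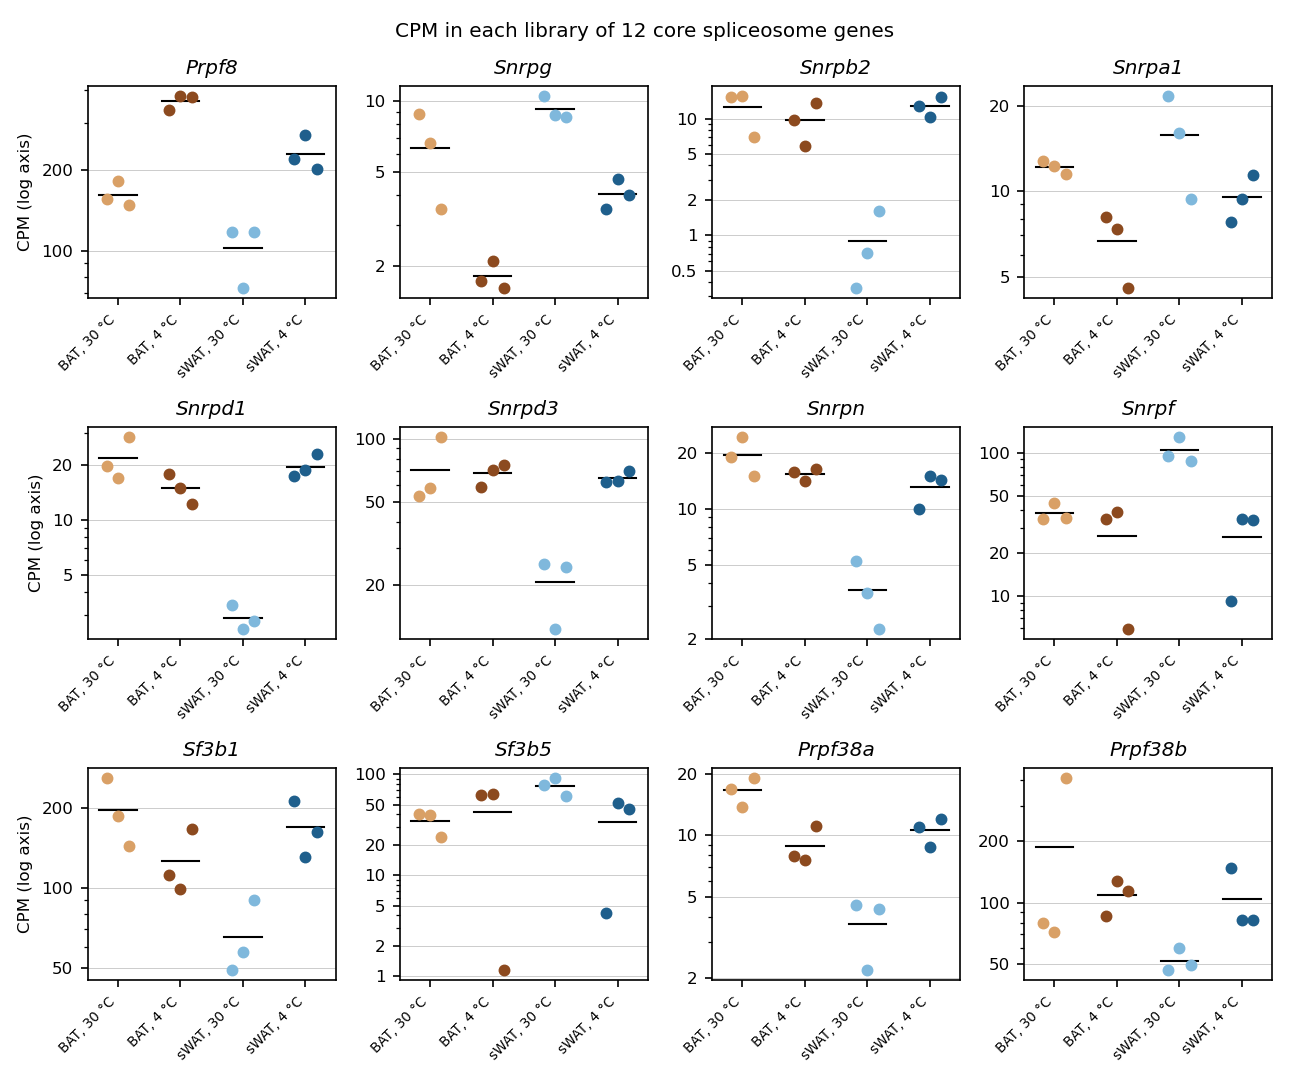
CPM (log axis) of 12 of the genes in each library of the 4 groups; points are libraries and bars are group means. Prpf8 is higher and Snrpg lower in the cold in both depots, Snrpb2, Snrpd1, Snrpd3, Snrpn and Prpf38a are lowest in thermoneutral sWAT, and the single low points of Sf3b5 are cold BAT library 3 and cold sWAT library 1.

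The log2 fold changes in sWAT followed the GC content of the transcripts. Across the 37 genes Spearman's rho was -0.51 in sWAT and 0.62 in BAT, against -0.53 and 0.10 over all genes with a GC value. These are correlations across genes that share the same libraries, given as a description. With GC content entered as an offset per library, 11 of the 37 genes were called higher and 4 lower in sWAT. The share of all genes called with the offset is not given beside these counts. They therefore do not say how the 37 genes stand against the transcriptome in that fit. Of the 14 genes called without the offset, 6 of the 11 higher and 2 of the 3 lower remained. Those 8 were Snrpd1 (1.79 ± 0.31), Snrpb2 (2.25 ± 0.40), Snrpd3, Snrpn (1.24 ± 0.41), Prpf3, Prpf8, Snrpf (-3.19 ± 0.57) and Snrpg (-1.62 ± 0.28). For Snrpb2, Snrpd1 and Snrpf the log2 fold change moved by over 1.5 times. Sf3b1 came to 0.25 ± 0.23 (edgeR, adjusted p = 0.393), U2af2 to -0.12 ± 0.21 (0.654), Prpf38a to 0.82 ± 0.34 (0.0783) and Prpf38b to 0.66 ± 0.27 (0.0747). Prpf4b turned sign, to -0.22 ± 0.28 (0.551). The offset also gave calls to 7 genes that had none without it. U2af1 (1.37 ± 0.30, 0.00819), Prpf19 (0.69 ± 0.21, 0.0278), Prpf40b (1.12 ± 0.19, 0.00285), Sf3b2 (0.90 ± 0.26, 0.0244) and Snrpc (1.01 ± 0.31, 0.0304) were then higher. Prpf39 turned from 0.84 to -1.47 ± 0.31 (0.00713), and Sf3b6 came to -0.77 ± 0.23 (0.0277). In BAT Prpf8 (1.13 ± 0.22) and Snrpg (-1.72 ± 0.44) kept their calls with this offset.

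**Figure D5:**
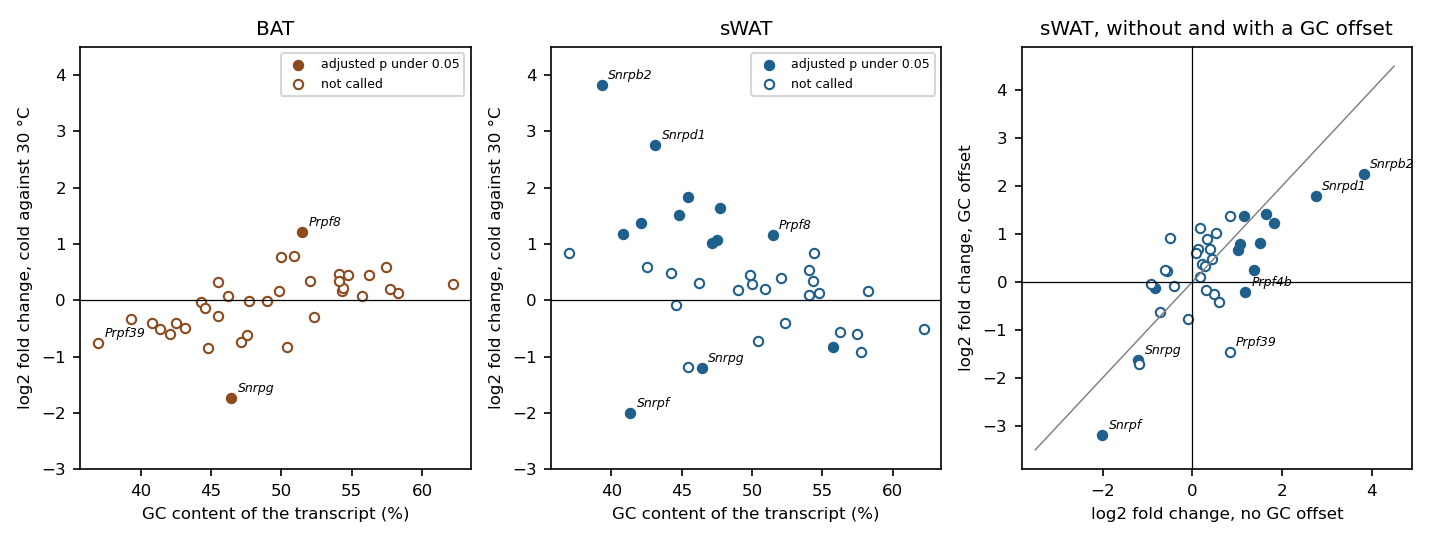
Left and middle: log2 fold change of cold against 30 °C of 36 of the genes against the GC content of its transcript, in BAT and in sWAT. Right: the sWAT values without (x axis) and with (y axis) a GC offset, with the line of equal values; filled points passed an adjusted p of 0.05 without the offset. Snrpb2 and Snrpd1 stay above 0 and Snrpf and Snrpg below it, and Prpf4b crosses to the lower side.

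The depots were compared in their response to cold through the difference of the 2 log2 fold changes, sWAT minus BAT, in a fit of all 12 libraries. That difference was positive for 8 genes and negative for none (17.3% and 7.85% of 16365 genes tested; 25.1% in either direction against 21.6% of the 37). Its median was 0.22, against 0.12 for all genes. It was 4.22 ± 0.71 for Snrpb2 (edgeR, adjusted p = 0.00191), 3.31 ± 0.39 for Snrpd1 (0.000380), 2.43 ± 0.44 for Prpf38a (0.00266) and 2.19 ± 0.45 for Snrpn (0.00512). For Sf3b1 it was 2.03 ± 0.47 (0.00876), for Prpf3 1.74 ± 0.38 (0.00683), for Snrpd3 1.73 ± 0.44 (0.0138) and for Prpf4b 1.64 ± 0.55 (0.0429). In Snrpb2 and Snrpd1 the sWAT change carries the difference, since BAT had 9.87, 5.88 and 13.6 CPM of Snrpb2 in the cold and 15.4, 15.9 and 7.07 at 30 °C. Prpf38a and Sf3b1 had log2 fold changes of opposite sign in the depots. Neither was called in BAT. For Prpf8 the difference was 0.01 ± 0.37 and for Snrpg 0.61 ± 0.47, neither called, which does not show that the responses were equal. The calls of Snrpb2 (2.59 ± 0.53), Snrpd1 (2.15 ± 0.46), Prpf38a (1.67 ± 0.39), Prpf3 and Snrpd3 stood with the GC offset. Those of Sf3b1 (0.86 ± 0.37, 0.115), Prpf4b (0.14 ± 0.51, 0.876) and Snrpn (1.55 ± 0.53, 0.0515) did not. Leaving out single libraries ended the calls of Prpf4b (cold BAT 1 or 2, thermoneutral BAT 2 or 3, each cold sWAT library, and thermoneutral sWAT 1 or 3; lowest difference 1.03) and of Snrpd3 (cold BAT 1, 0.0738, or 2, 0.0579). A replicate block also ended that of Prpf4b (0.0503). With library 1 as the only cold sWAT library, Snrpn (1.70 ± 0.55, 0.0565), Snrpd3 (1.56 ± 0.58, 0.0839) and Prpf4b (1.75 ± 0.69, 0.100) were not called. Without cold BAT library 3, Sf3b4, Snrpa, Snrpf and U2af2 were called negative, and Prpf39 was also called positive.

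At 30 °C the depots differed in 17 of the 37 genes, and 14 of them were higher in BAT. Among all genes 29.9% were higher and 28.8% lower in BAT, 58.7% together against 45.9% of the 37, and the medians were 0.32 and 0.03. This comparison uses the same thermoneutral sWAT libraries as the sWAT cold response, so their values are set side by side and do not count as separate evidence. Snrpd1 had 19.8, 16.8 and 28.6 CPM in thermoneutral BAT, a log2 difference to sWAT of 2.93 ± 0.29 (edgeR, adjusted p = 5.34e-06). Snrpn had 19.1, 24.5 and 14.95 CPM (2.44 ± 0.33, 5.57e-05), and Snrpb2 differed by 3.83 ± 0.54 (7.38e-05). Each BAT library lay above each sWAT library in all of these. Further genes higher in BAT included Snrpd3 (1.81 ± 0.32), Prpf38a (2.19 ± 0.32), Prpf3 (1.86 ± 0.28), Sf3b1 (1.62 ± 0.34), Prpf4b (1.85 ± 0.40), Prpf38b, U2af1, Prpf8, Prpf40b and Prpf39. Prpf38b rests on a single library: its 1.87 ± 0.55 was 0.59 without thermoneutral BAT library 3 (0.118), and Prpf4b was 1.24 without it. U2af2 (-1.05 ± 0.31, 0.0105), Snrpa (-0.95 ± 0.37, 0.0414) and Snrpf (-1.42 ± 0.57, 0.0474) were lower in BAT. The groups did not overlap for 22 genes, 59.5% against 65.9% of all. With the GC offset Prpf39 turned from 1.28 to -0.85 (0.0192). The calls of Sf3b1 (0.46, 0.148), Prpf4b (0.38, 0.386), U2af2 (-0.27, 0.291) and Snrpa (0.995) were lost with it. Calls close to the threshold were lost without single libraries, some of them from the cold groups: those of Snrpa, Snrpf and Prpf39 at adjusted p up to 0.111, 0.124 and 0.157, and those of Prpf8 and Prpf40b at up to 0.164 and 0.154. U2af1 was at 0.70 (0.0623) without thermoneutral sWAT library 2. A replicate block ended the calls of Prpf39 (0.0780), Prpf40b (0.0524), Prpf8 (0.0567) and Snrpf (0.0516), and Prpf18, Sf3a2, Sf3b4 and Snrpb gained one (0.0191 to 0.0491). The markers separated the depots here as well: 16 of 16 lymphocyte markers and 8 of 10 macrophage markers were lower in BAT, with summed lymphocyte levels of 23.4 to 32.7 CPM in BAT, and their part was not tested.

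In the cold few of these genes differed between the depots by the test. None of the 37 was called higher in BAT and 1 lower (1.19% and 11.1% of all genes; 12.3% in either direction against 2.7%). At an unadjusted p under 0.05 in edgeR there were 2 of the 37, against 4212 of 16365 genes tested. DESeq2's Wald test called 1 of the 37 higher and 1 lower. The gene called was Snrpg, with 1.74, 2.11 and 1.61 CPM in BAT and 3.50, 4.66 and 3.99 in sWAT. The libraries did not overlap and the log2 difference was -1.14 ± 0.34 (edgeR, adjusted p = 0.0415), but this call was lost, with adjusted p of 0.0529 to 0.177, without any of 11 of the 12 libraries. Prpf8 was at 0.67 ± 0.26 (0.123) with no overlap between depots, Prpf40b at 0.52 ± 0.25 (0.202) and Snrpd1 at -0.38 ± 0.27 (0.413). The median was 0.05, against -0.03 for all genes, and 4 genes had no overlap, 10.8% against 35%. Snrpb (-0.21 ± 0.60), Snrpn (0.25 ± 0.31), Sf3b1 (-0.41 ± 0.33), U2af1 (0.28 ± 0.30), U2af2 (-0.21 ± 0.31) and Prpf19 (0.13 ± 0.26) were not called. Cold sWAT libraries 2 and 3 carry Zic1, and the part of that in the difference was not tested. With library 1 as the only cold sWAT library, assumed to vary like the other groups, 0 genes were called in either direction and the median was 0.12.

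The rest of the splicing machinery was read from gene lists beside the 37 genes. Of 63 other core spliceosome proteins tested, 2 were higher and 1 lower in cold BAT, and 21 were higher and 7 lower in cold sWAT (medians -0.02 and 0.19). That is 4.76% called in BAT, against 12.2% of all genes, and 44.4% in sWAT, against 49.2%. The shares of the smaller lists that follow, 41.7% to 77.8% in sWAT, read against the same background. Dhx8, a helicase that releases spliced mRNA, rose by 1.05 ± 0.24 in BAT (edgeR, adjusted p = 0.0246), and Txnl4a, a U5 protein, fell by 1.36 ± 0.28 (0.0186). In sWAT Thoc1, an mRNA export protein, rose by 3.81 ± 0.41 (0.000378) and Smndc1 by 2.52 ± 0.29 (0.000428). Of 9 Lsm proteins, the relatives of the Sm proteins that ring U6 RNA and decaying mRNA, Lsm8 fell in both depots, by 1.29 ± 0.29 in BAT (0.0240) and 1.70 ± 0.28 in sWAT (0.00173). In sWAT 3 Lsm genes rose and 4 fell, with Lsm5 up by 3.48 ± 0.43 (0.000549). Of 16 genes of snRNP assembly and import none was called in BAT, while in sWAT 5 rose, led by the cap methylase Tgs1 (1.66 ± 0.32, 0.00342), and 3 fell, among them Coil of the Cajal body (-1.22 ± 0.26, 0.00534). Of 12 minor spliceosome genes none was called in BAT, and in sWAT 1 rose, Zrsr1 (3.07 ± 0.33, 0.000378), and 4 fell, with Armc7 falling by 2.03 ± 0.27 (0.000694). In BAT 2 of 16 assembly genes and 5 of 12 minor spliceosome genes had an unadjusted p under 0.05 in edgeR. Over all genes tested 4271 of 14612 did.

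Counting can blur some of these genes. Of the 37, 17 overlap another annotated gene, and the sources used here do not say whether the counting used strand. Fkbp3, which overlaps Prpf39 over 963 nucleotides on the opposite strand, had 42.4 ± 9.86 CPM (SD, n = 3) in cold and 4.45 ± 3.01 in thermoneutral sWAT. If strand was not used, reads within that overlap cannot be told apart. Plekhj1, which overlaps Sf3a2, had 10.9 ± 3.02 and 45.2 ± 6.16 CPM. Ccdc38, which overlaps Snrpf, had at most 2 counts in a library. Snrpn overlaps Snurf and Gm38393 on the same strand, and Gm38393 had at most 1 count in a library. Sequence shared with other annotated genes matters too. Of all 100-nucleotide windows of its transcript, U2af1l4 shared 97.1% with a transcript of another gene, U2af1 49.5% and Sf3b4 36.9%. Snrpe shared 19.3%, Snrpf 16.1%, Snrpn 16.1% and Snrpg 13.8%, and all these values are uncertain to that extent. For U2af1l4 the other gene is Gm49396, which overlaps it on the same strand. For Snrpn the others are the overlapping Snurf and Gm38393, so neither case is a copy elsewhere. Snrpd3, Snrpb2, Snrpb and all PRPF genes shared none.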

How the data were processed

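The deposited table holds whole-number read counts per gene symbol for 12 libraries, per the file headers. The submitters' processing notes name STAR, DESeq2 and mm10, with no versions, and the strand setting of the counting is not given in the sources used here. The counts were tested with edgeR 4.0.16 (R 4.3.3): genes were kept by filterByExpr, scaled by TMM and fitted with the robust quasi-likelihood model, and p-values were adjusted by Benjamini-Hochberg over every gene in the fit; adjusted values under 0.05 were called. Each cold response was fitted on the 6 libraries of its tissue. The difference of responses and the depot comparisons were fitted on all 12. Positions, lengths and GC content came from GENCODE M21, and upstream sequences from RefSeq. Intervals on shares of counts (Wilson, 95%) cover counting error only. The procedure was tested on simulated counts.

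Alternatives were RLE and upper quartile scaling, totals without mitochondrial and ribosomal protein genes, other filters, DESeq2 1.42.0, limma-voom (limma 3.58.1), GC and length offsets, a replicate block, other sets of libraries and leaving out each library. Leaving out cold sWAT libraries 2 and 3, which carry Zic1, was chosen after seeing the data. The genes, gene lists and tests were chosen with earlier results of these data known. Genes past the threshold were named, with full values for at most 12 a comparison; where fewer than 4 passed, the 4 of smallest p were given. Snrpb, Snrpn, Sf3b1, U2af1, U2af2, Prpf8 and Prpf19 were followed throughout, and at most 2 genes a list in each comparison. Lsm8 was also given in sWAT. 1 gene of the set enters every count and median but is not reported by name or drawn here.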

Additional observations from a re-analysis of the deposited data

Results flagged for a closer look

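The cold response differed between sWAT and BAT, by the test of the difference itself in edgeR, for 8 of the 37 genes (21.6%, against 25.1% of all genes tested). On the log2 scale, sWAT minus BAT, the difference was 4.222 for Snrpb2, 3.305 for Snrpd1, 2.428 for Prpf38a, 2.186 for Snrpn, 2.034 for Sf3b1, 1.742 for Prpf3, 1.725 for Snrpd3 and 1.642 for Prpf4b. All of them are positive, and all rest on the thermoneutral sWAT libraries, whose mitochondrial, ribosomal protein and GC values stand apart. What these carry into the differences was not tested beyond the GC offset, with which Sf3b1, Snrpn and Prpf4b were no longer called.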

How the results depend on the processing

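Counts of the 37 genes called are given here and below without the share of all genes called in the same fit. That share also changes with the setting, so the counts are no result about the 37 genes alone. In BAT 1 gene was called higher and 1 lower. The counts became 3 and 2 with DESeq2, 3 and 3 with a GC offset, 3 lower with a GC and length offset, and 11 and 7 without both libraries numbered 3. Leaving out single libraries gave 0 to 4 higher and 0 to 3 lower. In sWAT leaving out single libraries gave 9 to 14 higher and 2 to 4 lower, with medians of 0.20 to 0.56. For the difference between the responses no gene was called negative; 1 was with a GC and length offset, 2 without both BAT libraries numbered 3, and 0 to 4 without single libraries. At 30 °C the 3 genes lower in BAT became 6 with DESeq2, 6 in a fit of only the 6 libraries compared and 1 to 6 without single libraries, and the median 0.22 to 0.57. In the cold the 1 gene lower in BAT became 0 with RLE scaling, totals without mitochondrial and ribosomal protein genes, no filter, limma-voom, the GC offset and without cold sWAT libraries 2 and 3, and 0 to 1 without single libraries; DESeq2 called 1 higher. With the GC offset, the GC and length offset and the block with the GC offset, in that order, Prpf4b turned to -0.22, -0.37 and -0.15 in sWAT. At 30 °C Prpf39 turned to -0.85, -0.85 and -0.85. The cause was not tested. Upper quartile scaling moved the median of all genes in BAT from -0.04 to -0.20, and that of the 37 genes from 0.08 to -0.10. RLE scaling moved the median difference of responses from 0.12 to -0.03 over all genes and from 0.22 to 0.06 over the 37. Of 1529 recomputed values of single genes, 1342 kept their side of the threshold, 42 of them with a changed sign and no call. A further 150 lost the call and 31 gained one, with the sign kept. The last 6 changed sign with a call before, after or both.

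Same-numbered libraries deviated together with r of 0.31, 0.07 and 0.29 in BAT and -0.23, 0.19 and -0.32 in sWAT. The sample titles give the number as that of an experiment, without saying what an experiment shared, and these values do not show pairing in both depots. Between BAT and sWAT, same-numbered libraries had r of -0.47, 0.54 and -0.30 in the cold and 0.01, 0.23 and 0.06 at 30 °C. The labels do not say whether the same mouse gave both depots, and the depot comparisons treat the libraries as independent. A replicate block gave 2 higher and 2 lower in BAT and 5 lower at 30 °C, and with the GC offset 3 higher and 4 lower in BAT.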
